A study of Mus musculus with 30 samples.

Results

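The 6 genes described here handle iron and recycle haem: Hmox1, Fth1, Ftl1, Slc40a1, Tfrc and Slc11a1. They were chosen by name as a small set with known roles, and all 6 were among the 23013 gene rows of the deposited table. Hmox1 encodes haem oxygenase 1, the inducible enzyme that opens the haem ring and frees its iron. Fth1 and Ftl1 encode the heavy and light chains of ferritin, the hollow protein shell that stores iron. Slc40a1 encodes ferroportin, the membrane exporter of iron, and Tfrc encodes the transferrin receptor, through which most cells take up iron. Slc11a1 encodes a metal transporter of the phagosome membrane in macrophages and neutrophils.

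In the body, macrophages of the spleen and liver take up aged red cells, break down their haem with Hmox1 and return the iron to plasma through ferroportin. Cells that divide, such as red cell precursors and activated lymphocytes, carry much transferrin receptor. Inflammation is known to hold iron inside macrophages and to raise ferritin. Much of the control of ferritin, ferroportin and transferrin receptor acts on the messenger RNA itself, through a hairpin called the iron-responsive element (IRE). When iron is scarce, iron regulatory proteins bind this hairpin. An element in the 5′ untranslated region (UTR) then blocks translation, and elements in the 3′ UTR protect the message from decay. RNA levels therefore show only part of how these genes respond to iron.

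Seq-Well, which pairs single cells with barcoded beads in an array of tiny wells and reads the 3′ ends of their messenger RNA, gave 30 libraries. They came from 8 organs of 8 mice, all DBA1/J males aged 8 to 12 weeks. The CIA mice (S1, S2, S6 and S7) carried collagen-induced arthritis, raised with 100 µg of bovine collagen II in complete adjuvant and a booster in incomplete adjuvant on day 20, and their arthritis scores were 8 for S1 and S2, 3 to 4 for S6 and 3 for S7. Mice H3, H4, H6 and H7 were healthy controls that had received phosphate-buffered saline, with a score of 0. Blood and lymph node each came from 4 healthy and 3 CIA mice, whereas the other 6 organs had a single animal of each state. The CIA animal was always S1, and the healthy one was H3 for joint and H6 for lung, muscle, skin, spleen and thymus. Blood had been reduced to mononuclear cells on a density gradient and red cells had been lysed, so mature red cells and granulocytes are not represented as in whole blood. All organs had been frozen and thawed. Joint, lung, muscle and skin were then minced and digested with enzymes, whereas lymph node, spleen and thymus were pressed through a strainer. Red cells of these last organs had been lysed too, and the methods state that erythroid cells were removed from organs and blood in this way. Levels are given as UPM, the units of the deposited smoothed signal summed over a mouse and organ and scaled to a total of 1000000. No counting error can be drawn from such units, and a gene without signal is described only as listed at 0.

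The libraries held 27 to 934 barcodes and 217494 to 7886790 units. Library titles end in CIA or 2CIA, a mark that the labels do not explain and that does not stand for the disease state. All 3 CIA blood libraries carried 2CIA. The suffix also differed between H6 and S1 in each organ that only these animals gave, where it cannot be told apart from the state. Globin genes took 3.88% to 60.4% of the units in blood libraries. Marker genes placed the skin, lung and thymus libraries in their labelled organs, but the healthy muscle library stood apart: its 6 skeletal muscle markers summed to 69.3 UPM with 3 of them above 0, against 4635 UPM in the CIA muscle library, and its 8 neutrophil markers summed to 104212 UPM. The healthy blood library of H3 was the smallest, with 27 barcodes that shared 7 distinct profiles. The healthy lymph node of H7 also stood apart, with 14.9% globin units and 140519 UPM of erythroid markers against 112 to 21459 UPM in the other healthy lymph nodes. Of 8255 barcode sequences, 13 occurred in more than 1 library.

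The iron-responsive elements of these genes are printed here because they are the sequence feature that the storage, export and uptake genes share and that the choice of genes did not use. UTRs of the mouse annotation (GENCODE vM21, genome build GRCm38) were searched on the transcript strand for CNNNNNCAGTGN followed by 5 bases, of which at least 4 had to pair with the 5 bases before the loop, G with T included. Capitals mark the 6-base loop. The 5 bases on each side of the loop are the upper stem. The 6 outer bases on each side are printed as flanks, and their pairing was not scored.
Fth1, 5′ UTR, chr19:9982732-9982760, plus strand: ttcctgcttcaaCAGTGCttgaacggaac
Ftl1, 5′ UTR, chr7:45459779-45459807, minus strand: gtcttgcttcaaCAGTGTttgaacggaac
Slc40a1, 5′ UTR, chr1:45925465-45925493, minus strand: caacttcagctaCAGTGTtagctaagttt
Tfrc, 3′ UTR, element 1, chr16:32631219-32631247, plus strand: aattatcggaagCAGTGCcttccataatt
Tfrc, 3′ UTR, element 2, chr16:32631598-32631626, plus strand: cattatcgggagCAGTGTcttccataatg
Tfrc, 3′ UTR, element 3, chr16:32631663-32631691, plus strand: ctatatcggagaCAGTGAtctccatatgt
Tfrc, 3′ UTR, element 4, chr16:32631710-32631738, plus strand: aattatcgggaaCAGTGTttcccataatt
All 7 elements had 5 of 5 upper-stem pairs. The 3 genes with an element in the 5′ UTR had 1 each and Tfrc had 4 in its 3′ UTR. The same letters and pairing occurred in the 5′ UTR of 0.996% of 20580 coding genes and in the 3′ UTR of 4.16% of 20978. They were not found in either UTR of Hmox1 or Slc11a1. A match is a description of the letters and not a measurement of protein binding.

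Hmox1, the haem-degrading enzyme (chr8:75093618-75100593), was above 0 in 11 of 26 mouse and organ sums and had the steepest contrast among organs. Its level was 1929 UPM in the lung of H6 and 1855 UPM in the lung of S1. The joint held 409 UPM in H3 and 338 UPM in S1. The skin held 178 UPM in H6 and 232 UPM in S1. Healthy and CIA mice thus lay close to each other in each of these 3 organs. Muscle differed, with 708 UPM in H6 and 28.4 UPM in S1. In blood Hmox1 was listed at 0 in all 4 healthy mice and in S6, at 35.6 UPM in S2 and at 32.9 UPM in S7. Spleen was listed at 0 in H6 and at 23.1 UPM in S1. All 7 lymph node sums and both thymus sums were listed at 0. Values above 0 ran from 23.1 to 1929 UPM, an 83.5-fold range. By median the order was lung, joint, muscle, skin and spleen, with blood, lymph node and thymus at 0, and lung and joint, and skin and spleen, did not overlap. In lung, the gene was above 0 in 100% of the 70 barcodes of H6 and 89.0% of the 182 barcodes of S1, and in joint in 85.5% of the 193 barcodes of H3. In the spleen of S1 it was above 0 in 15.8% of 532 barcodes. Smoothing adds neighbouring barcodes together, so these shares are higher than those of single cells.

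**Figure D1:**
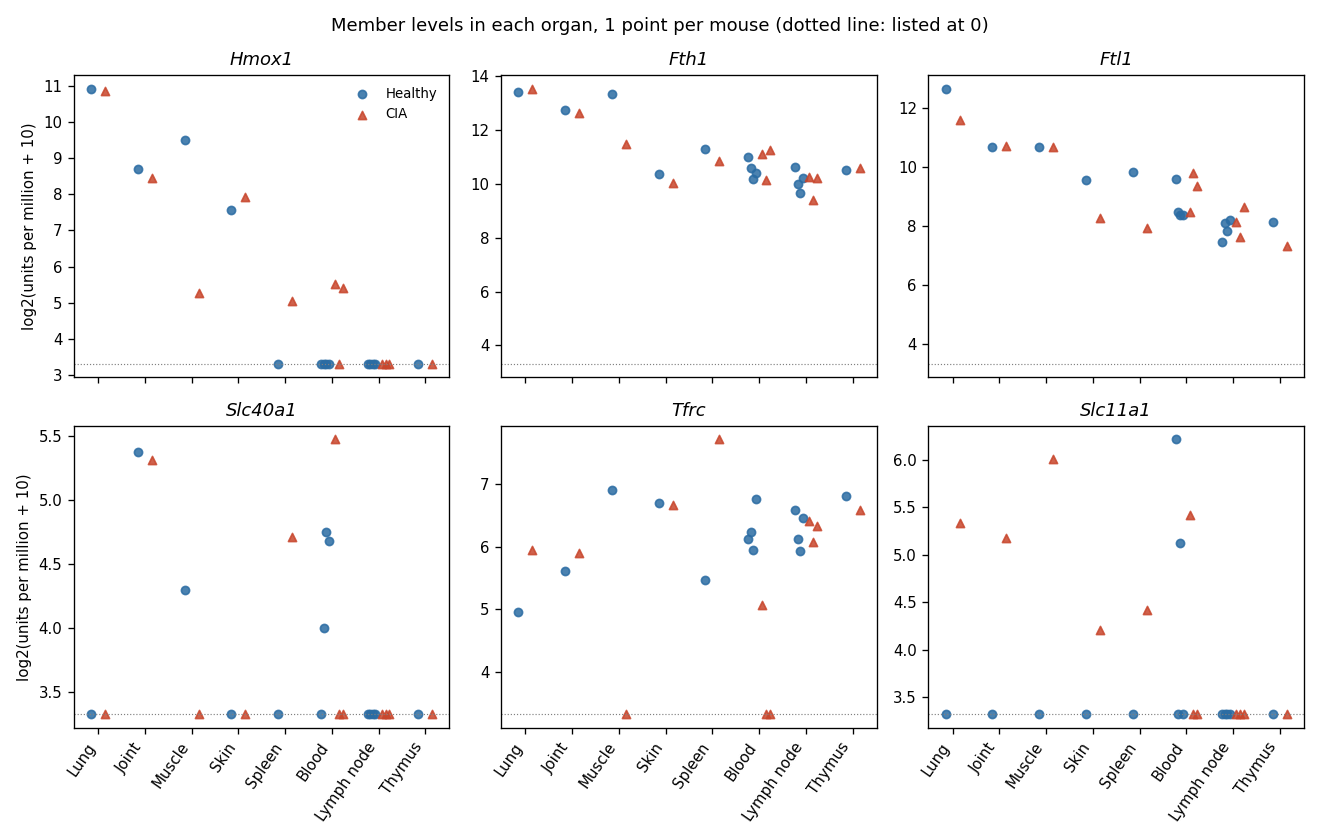
Levels of the 6 genes as log2(UPM + 10) on the y axis in the 8 organs on the x axis, 1 point per mouse, with circles for healthy and triangles for CIA mice, and a dotted line for values listed at 0. The Hmox1 points of lung, joint and skin lie above every point of spleen, blood, lymph node and thymus, and the Fth1 and Ftl1 points are highest in lung.

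The organs with Hmox1 in every mouse were those digested with enzymes. Hmox1 was above 0 in 8 of 8 sums of joint, lung, muscle and skin (28.4 to 1929 UPM, median 373) and in 3 of 18 sums of blood, lymph node, spleen and thymus (highest 35.6 UPM, median 0). Organ and digestion cannot be told apart in this design, and no organ outside blood and lymph node had more than 1 mouse per state, so no test was made. A list of 9 immediate early and heat shock genes (Fos, Fosb, Jun, Junb, Egr1, Atf3, Hspa1a, Hspa1b and Dusp1), added after the values were seen because handling of tissue is known to raise them, summed to 3477 to 11681 UPM (median 6448) in the digested organs and to 2286 to 7257 UPM (median 4005) in the others. The median was higher in the digested organs and the ranges overlapped. Within the digested organs, the muscle of S1 had the highest sum and the lowest Hmox1 level, and the lung of S1 had the lowest sum with 1855 UPM of Hmox1. Over the 26 sums, r between Hmox1 and the sum of this list was 0.44. The part of digestion in the Hmox1 levels was not tested.

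Mononuclear phagocyte markers also differed among these organs. The 12 markers in the table, among them C1qa, C1qb, Cd68, Csf1r and Ly6c2, summed to 1792 UPM in the lung of H6 and 2190 UPM in that of S1, with 9 of 12 above 0 in each. They summed to 955 and 1083 UPM in joint, to 253 UPM in the spleen of H6 and 1107 UPM in that of S1 (6 and 11 of 12 above 0), 61.9 and 43.7 UPM in skin, and 177 to 437 UPM in lymph node, where 3 or 4 of the 12 were above 0. In skin, 4 of the 12 were above 0 in H6 and 6 in S1. In muscle the markers summed to 557 UPM in H6 and 1626 UPM in S1, where Hmox1 was at 708 and 28.4 UPM. Blood ran from 72.8 UPM in H4 to 2738 UPM in S6, both with Hmox1 listed at 0, and thymus held 125 and 136 UPM. The part of phagocytes in the Hmox1 levels was not tested. Across the 26 sums, which share libraries between genes and differ in depth and organ, Pearson's r of log2(UPM + 10) was 0.37 between Hmox1 and the phagocyte sum, 0.62 with the sum of 8 fibroblast and cartilage markers, 0.66 with 5 lung epithelial markers and −0.68 with 6 T cell markers.

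The genes whose pattern over the 26 sums was most like that of Hmox1 were drawn from 5417 genes averaging 25 UPM or more. They were Lhfpl2 (r = 0.92), Niban2 (r = 0.91) and Emp1 (r = 0.90). Among the other genes of the set, Hmox1 followed Fth1 (r = 0.83) and Ftl1 (r = 0.78), and its r with Slc40a1, Tfrc and Slc11a1 lay between −0.06 and 0.24. These are descriptions over sums that share mice and libraries.

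Fth1, the ferritin heavy chain (chr19:9980600-9985111), was above 0 in all 26 sums, from 666 to 11870 UPM. Lung was highest, with 10895 UPM in H6 and 11870 UPM in S1, followed by joint with 6847 UPM in H3 and 6360 UPM in S1. Muscle split, with 10223 UPM in H6 and 2860 UPM in S1. Spleen held 2506 UPM in H6 and 1840 UPM in S1. Thymus held 1464 UPM in H6 and 1543 UPM in S1, and skin 1301 and 1038 UPM. Blood ran from 1110 to 2445 UPM and lymph node from 666 to 1560 UPM. In order of medians, the organs ran from lung through joint, muscle, spleen, blood, thymus and skin to lymph node. Among neighbours in this order, lung and joint, muscle and spleen, and thymus and skin did not overlap, with 2 mice each. The other neighbours did.

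Ftl1, the ferritin light chain (chr7:45457944-45459886), was also above 0 in all 26 sums, from 148 to 6406 UPM. The lung held 6406 UPM in H6 and 3079 UPM in S1. Joint (1624 and 1647 UPM) and muscle (1615 and 1598 UPM) followed, and their values lay next to each other without overlap. Spleen held 902 UPM in H6 and 233 UPM in S1, and skin 742 and 293 UPM. Blood ran from 317 to 864 UPM, lymph node from 164 to 383 UPM and thymus from 148 to 268 UPM. By median the order was lung, joint, muscle, spleen, skin, blood, lymph node and thymus. From spleen down, each organ overlapped the next, whereas lung and joint, joint and muscle, and muscle and spleen did not overlap.

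The balance of the ferritin chains varied with the sample. The ratio of Fth1 to Ftl1 units was 1.70 in the lung of H6 and 3.85 in that of S1. It was 4.22 in the joint of H3 and 3.86 in the joint of S1. The highest values were 10.4 in the thymus of S1, 9.52 in the lymph node of H3 and 7.91 in the spleen of S1, and the lowest was 1.29 in the blood of S6. Over all sums the levels of the chains had an r of 0.86. Units are not scaled to gene length, so the ratio serves to compare samples and not the amounts of the chains.

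Ferritin has many processed pseudogenes, and some of these followed Fth1 and Ftl1 in their pattern over the sums. The gene most like Fth1 was the pseudogene Gm6977 (r = 0.94) and the gene most like Ftl1 was the pseudogene Gm8814 (r = 0.92). Of the 31-base words of the Gm6977 transcript, 21.2% occurred in Fth1 and 0% in Ftl1. Of those of Gm8814, 6.14% occurred in Ftl1 and 0% in Fth1. Reads could thus be divided between these genes and their copies, and the Fth1 and Ftl1 levels are uncertain to that extent. After the pseudogenes, Fth1 was most like Chil3 (r = 0.88) and Clec4d (r = 0.87), and Ftl1 was most like Fth1. The r of Ftl1 with Gm6977 was 0.90.

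Slc40a1, the exporter ferroportin (chr1:45908070-45926532), was sparse. It was above 0 in 8 of 26 sums, at 5.95 to 34.5 UPM. The joint was the organ with the gene in both mice, at 31.5 UPM in H3 and 29.9 UPM in S1. In blood it was listed at 0 in H3, S6 and S7, at 5.95 UPM in H4, 16.9 UPM in H6, 15.7 UPM in H7 and 34.5 UPM in S2. Spleen was listed at 0 in H6 and at 16.2 UPM in S1, and muscle at 9.60 UPM in H6 and at 0 in S1. Lung, skin, thymus and lymph node were listed at 0 throughout. The lung combined the highest Hmox1 and ferritin levels with no listed ferroportin, but its libraries were small, at 477553 and 1180747 units. Within the joint of S1, the library with the suffix CIA (591444 units) was listed at 0 and the 2CIA library was at 32.1 UPM. The values of 0 in lung are therefore not read as absence. The genes most like Slc40a1 were Cd177 (r = 0.81), Wfdc21 (r = 0.75) and Pglyrp1 (r = 0.75), which are known from neutrophils. Over the 26 sums, r of Slc40a1 was 0.62 with the neutrophil markers and 0.54 with the erythroid markers.

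Tfrc, the transferrin receptor (chr16:32608896-32632794), was above 0 in 23 of 26 sums, at 20.9 to 201 UPM. The highest level was 201 UPM in the spleen of S1, against 34.4 UPM in the spleen of H6. Thymus held 103 UPM in H6 and 86.7 UPM in S1, and skin 94.2 and 91.6 UPM. Lymph node ran from 51.1 to 85.9 UPM with a median of 70.6 UPM. Joint held 39.2 UPM in H3 and 50.0 UPM in S1, and lung 20.9 UPM in H6 and 51.7 UPM in S1. Muscle was at 110 UPM in H6 and listed at 0 in S1, whose library held 54 barcodes. By median the order was spleen, thymus, skin, lymph node, muscle, blood, joint and lung, and among neighbours skin and lymph node alone did not overlap. Lung and joint were thus the lowest organs for Tfrc and the highest for Fth1 and Ftl1. Over the 26 sums, r was −0.43 between Tfrc and Ftl1, −0.16 between Tfrc and Fth1, and −0.56 between Tfrc and the phagocyte markers. With Tfrc, the T cell markers had an r of 0.61 and the thymocyte markers an r of 0.46. The most alike genes were Uchl3 (r = 0.85), Cspp1 (r = 0.82) and Larp1 (r = 0.79).

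Slc11a1, the phagosomal metal transporter (chr1:74375014-74386057), was above 0 in 8 of 26 sums. In each organ with 1 mouse per state except thymus it was listed at 0 in the healthy mouse and above 0 in S1. The S1 levels were 54.4 UPM in muscle, 30.5 UPM in lung, 26.3 UPM in joint, 11.4 UPM in spleen and 8.45 UPM in skin. These 5 differences rest on 1 CIA mouse and on healthy libraries of H3 and H6, and within the joint of S1 the library with the suffix CIA was listed at 0 and the library with 2CIA was at 28.3 UPM. Blood did not repeat the direction, with 64.4 UPM in H3, 24.8 UPM in H6 and 32.9 UPM in S2, and 0 listed in H4, H7, S6 and S7. Lymph node and thymus were listed at 0. The most alike genes were Atp2b1, Ccrl2 and Fgl2, with r of 0.72, 0.71 and 0.70.

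The first comparison that could be tested asked whether CIA changed these genes in blood mononuclear cells. The level filter, a mean of 25 UPM, left 3 members. None of them passed limma at an adjusted p of 0.05, and 1 of 3 had an unadjusted p below 0.05, as did 9.82% of all genes. Over all 4704 genes tested, 0.128% were called and the median log2 difference was −0.55, so that a member near −0.55 moved with the bulk of genes. Under the other scalings this median lay between −0.10 and −0.38.

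Tfrc carried the lowest of these p-values, but it passed the level filter through the healthy mice alone, where it was high, so the sign of its difference is no result in itself. Its blood level was 59.8, 65.6, 52.0 and 99.0 UPM in H3, H4, H6 and H7, and 23.7 UPM in S2 with S6 and S7 listed at 0. The blood libraries of S2, S6 and S7 held 173, 62 and 97 barcodes, and the healthy ones 27 to 934. On the UPM scale the highest CIA mouse was below the lowest healthy mouse, whereas the groups overlapped on the trimmed-mean scale used for testing. The log2 difference on that scale was −2.38 (SE 1.02, 4 against 3 mice), with a limma p of 0.0230 and an adjusted p of 0.492. The exact permutation test gave p = 0.0571 with two-sided counting, where 0.0286 is the smallest value that 4 against 3 mice allow. The title suffix was not balanced between the states. Among libraries with 2CIA, H3 was at 59.8 UPM and the 2CIA library of H4 was listed at 0, against 23.7, 0 and 0 UPM in the CIA mice, so that the states overlapped. T cell markers moved in the same direction: the 6 markers summed to 176 to 589 UPM in healthy blood and to 141, 100 and 0 UPM in S2, S6 and S7. Their part in the Tfrc difference was not tested. In a sum over cells, fewer cells that express a gene and less RNA of it per cell cannot be told apart.

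The ferritin chains did not separate the states in blood. Fth1 was at 2032, 1528, 1143 and 1349 UPM in H3, H4, H6 and H7 and at 2209, 1110 and 2445 UPM in S2, S6 and S7. The difference of −0.18 on the log2 scale (SE 0.64) had a limma adjusted p of 0.945 and turned its sign under the other scalings. Ftl1 was at 763, 346, 317 and 321 UPM in the healthy mice and at 344, 864 and 647 UPM in the CIA mice. The states differed by 0.03 on the log2 scale (SE 0.58), with a limma adjusted p of 0.994. For both genes, the CIA and healthy values were interleaved.

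The sparse members were under the level filter and were compared with exact permutation tests. Hmox1 was above 0 in 2 of 3 CIA mice and 0 of 4 healthy mice (log2 difference 1.49, exact two-sided p = 0.143), and without the level filter its limma p was 0.0420 with an adjusted p of 0.617. Slc40a1 (log2 difference −0.15, exact p = 0.829) and Slc11a1 (log2 difference −0.16, exact p = 1) overlapped between the states. The CIA bloods also held more phagocyte markers, at 2414, 2738 and 696 UPM against 72.8 to 308 UPM in the healthy mice, and S2 and S7 held 62885 and 73218 UPM of neutrophil markers against 1591 to 5320 UPM. Hmox1 was listed at 0 in S6, whose phagocyte sum was the highest. The part of these cells in the Hmox1 values was not tested.

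In lymph node the corresponding comparison had smaller standard errors and no called member. None of 3 tested members passed, 0 of 3 had an unadjusted limma p below 0.05 against 4.23% of all genes, and 0.0198% of all 5060 genes were called. Fth1 was at 1560, 996, 800 and 1169 UPM in H3, H4, H6 and H7 and at 1202, 666 and 1188 UPM in S1, S2 and S7 (log2 difference −0.11, SE 0.27, limma adjusted p = 0.987). Ftl1 was at 164, 260, 214 and 279 UPM in the healthy mice and at 268, 186 and 383 UPM in the CIA mice, so the groups overlapped. Its states differed by 0.28 (SE 0.34), with a limma adjusted p of 0.963, and for Tfrc by 0.04 (SE 0.33), with a limma adjusted p of 0.998. The CIA range of Tfrc, 57.8 to 75.4 UPM, lay inside its healthy range of 51.1 to 85.9 UPM. Hmox1, Slc40a1 and Slc11a1 were listed at 0 in every lymph node.

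**Figure D2:**
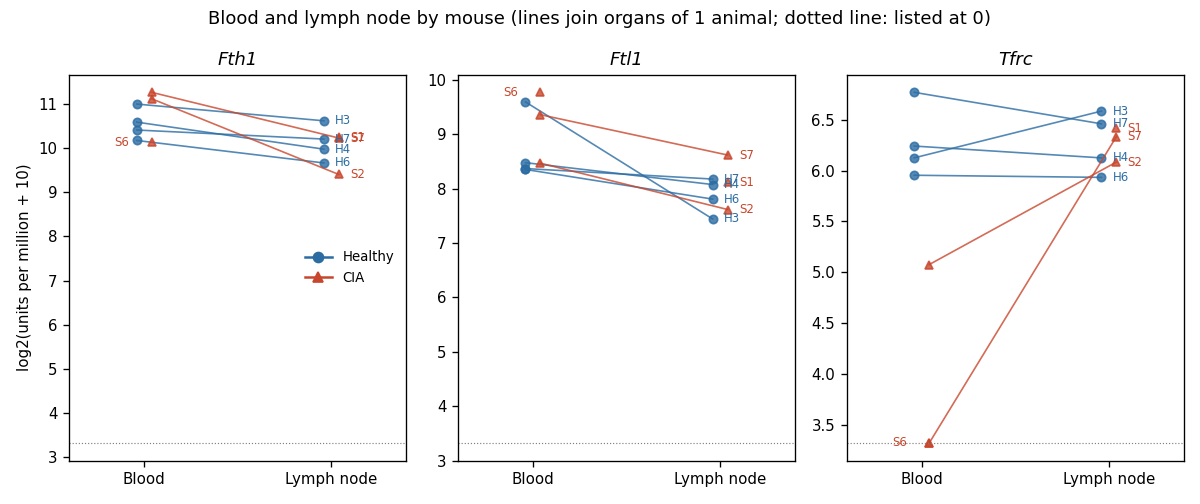
Fth1, Ftl1 and Tfrc as log2(UPM + 10) on the y axis in blood and lymph node on the x axis, with lines joining the organs of 1 animal, circles for healthy and triangles for CIA mice, and a dotted line for values listed at 0. Fth1 and Ftl1 are lower in lymph node than in blood in each of the 4 joined healthy mice, and Tfrc is lowest in the blood of the 3 CIA mice.

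Healthy lymph node was then compared with healthy blood, which asks how these organs differ without disease. Ftl1 was lower in lymph node in all 4 animals: 164 against 763 UPM in H3, 260 against 346 UPM in H4, 214 against 317 UPM in H6, and 279 against 321 UPM in H7. On the trimmed-mean scale the organs did not overlap, with a log2 difference of −1.15 (SE 0.38) and a limma p of 0.00869 with an adjusted p of 0.241. An exact sign-flip test over the 4 animals, added after seeing the data because the organs are paired, gave p = 0.125, the smallest that 4 pairs allow. T cell markers were higher in lymph node, at 1102 to 2124 UPM in healthy lymph node and 176 to 589 UPM in healthy blood. Erythroid markers were lower there, at 112 to 140519 UPM against 35814 to 516478 UPM. So were neutrophil markers, at 28.0 to 3140 UPM against 1591 to 5320 UPM, and B cell markers, at 532 to 1360 UPM against 768 to 2564 UPM. The part of these cells in the Ftl1 difference was not tested. With the mouse as replicate block, which pairs the organs of an animal, the Ftl1 difference was also −1.15 with a limma adjusted p of 0.233. Fth1 was lower in lymph node in 4 of 4 animals as well, and its log2 difference of −0.77 (SE 0.39) had a paired exact p of 0.125 and a limma adjusted p of 0.374, and it was −0.40 without H4. Tfrc differed by −0.31 (SE 0.47, limma adjusted p = 0.806). The sparse members overlapped between the organs: Slc40a1 differed by −1.01 (paired exact p = 0.25) and Slc11a1 by −1.06 (paired exact p = 0.5), and Hmox1 was listed at 0 in all 8 sums. None of the 3 tested members was called, and 1 of 3 had an unadjusted limma p below 0.05 against 14.9% of all genes. Of all 4990 genes, 0.0401% were called, and their median difference was 0.09, or 0.08 to 0.41 under the other scalings.

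The interaction of organ and state asked whether the difference between CIA and healthy mice was itself different in lymph node and blood. No member was called, and 0.0% of 4858 genes were. The median over all genes was 0.53, or 0.29 to 0.40 under the other scalings. At an unadjusted p below 0.05 stood 1 of the 3 members and 8.42% of all genes. The Tfrc interaction was 2.41 on the log2 scale (SE 0.92), the state difference being higher in lymph node, with a limma adjusted p of 0.494. With the mouse as replicate block it was 2.44 (limma adjusted p = 0.585). Restricted to libraries with the suffix 2CIA, it was 0.59. Fth1 (−0.12) and Ftl1 (0.07) differed by less than their standard errors of 0.64 and 0.58.

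**Figure D3:**
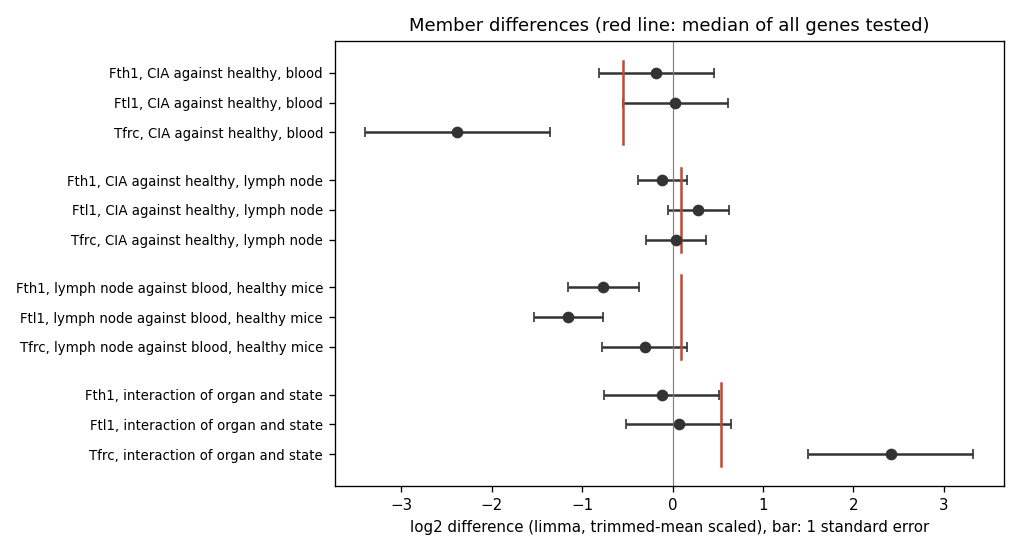
Log2 differences of Fth1, Ftl1 and Tfrc from limma on the x axis, with bars of 1 standard error, for the 4 tested comparisons on the y axis, and a red line at the median of all genes tested in that comparison. The Tfrc estimates of −2.38 in blood and 2.41 for the interaction have the widest bars, and none of the 12 estimates passed an adjusted p of 0.05.

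The other organs had a single mouse for each state, so their members are described without a test. Ratios are of UPM + 10, and only members averaging 25 UPM or more over the pair were counted. In joint, 0 of 5 members moved past 2-fold, against 28.7% of all genes: Hmox1, Fth1, Ftl1, Slc40a1 and Tfrc had log2 ratios between −0.27 and 0.29. The joint is the organ that shows the disease, and S1 had a score of 8. Its libraries differed from each other, with Fth1 at 6544 UPM under the suffix 2CIA and 3907 UPM under CIA, Ftl1 at 1604 and 2217 UPM, and Tfrc at 53.8 UPM and listed at 0. For these 3 genes the libraries of 1 joint differed by more than the states did, whereas Hmox1 was at 338 UPM in both libraries.

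In lung, 1 of 4 members moved past 2-fold, against 47.1% of all genes. It was Ftl1, with a log2 ratio of −1.05, and Tfrc followed at 0.99. Hmox1 (−0.06) and Fth1 (0.12) stayed together. Lung epithelial markers summed to 22096 UPM in H6 and 2372 UPM in S1, and neutrophil markers to 467 and 17489 UPM, and the part of these cells in the Ftl1 ratio was not tested. In skin, 1 of 4 members moved past 2-fold, again Ftl1 (log2 ratio −1.31), against 25.1% of all genes. Fibroblast and cartilage markers summed to 4217 UPM in the skin of H6 and 15852 UPM in that of S1, and keratinocyte markers to 1961 and 1138 UPM, and their part in the Ftl1 ratio was not tested.

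In spleen, 2 of 3 members moved past 2-fold, against 36.9% of all genes: Ftl1 with a log2 ratio of −1.91 and Tfrc with 2.25. Erythroid markers summed to 589 UPM in H6 and 92605 UPM in S1, neutrophil markers to 4368 and 97460 UPM, and phagocyte markers to 253 and 1107 UPM. The erythroid sums were measured after lysis of red cells. The part of these cells in the Tfrc value was not tested. In thymus, 0 of 3 members moved past 2-fold, against 17.0% of all genes, with log2 ratios of 0.08 for Fth1, −0.22 for Tfrc and −0.81 for Ftl1. Thymocyte markers summed to 1395 UPM in the thymus of H6 and 721 UPM in that of S1, and neutrophil markers to 164 and 1590 UPM, and their part in the thymus values was not tested. Ftl1 was thus lower in S1 than in H6 in lung, skin, spleen and thymus, which are 4 organs of the same 2 animals and not 4 replicates.

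In muscle, 4 of 5 members moved past 2-fold, against 55.6% of all genes. Of the 4, Tfrc (listed at 0 in S1) and Slc11a1 (listed at 0 in H6) were counted through the mouse where they were high and so had to differ. Hmox1 (log2 ratio −4.23), Tfrc (−3.59) and Fth1 (−1.83) were lower in S1 and Slc11a1 (2.69) was higher, whereas Ftl1 was level (−0.02). These libraries differed in kind: the healthy one held few muscle markers and 104212 UPM of neutrophil markers against 18377 UPM in S1, and phagocyte markers summed to 557 UPM in H6 and 1626 UPM in S1. The part of cell makeup in these ratios was not tested. Over the other 5 organs, 4 values had moved past 2-fold, of which 3 were Ftl1.

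**Figure D4:**
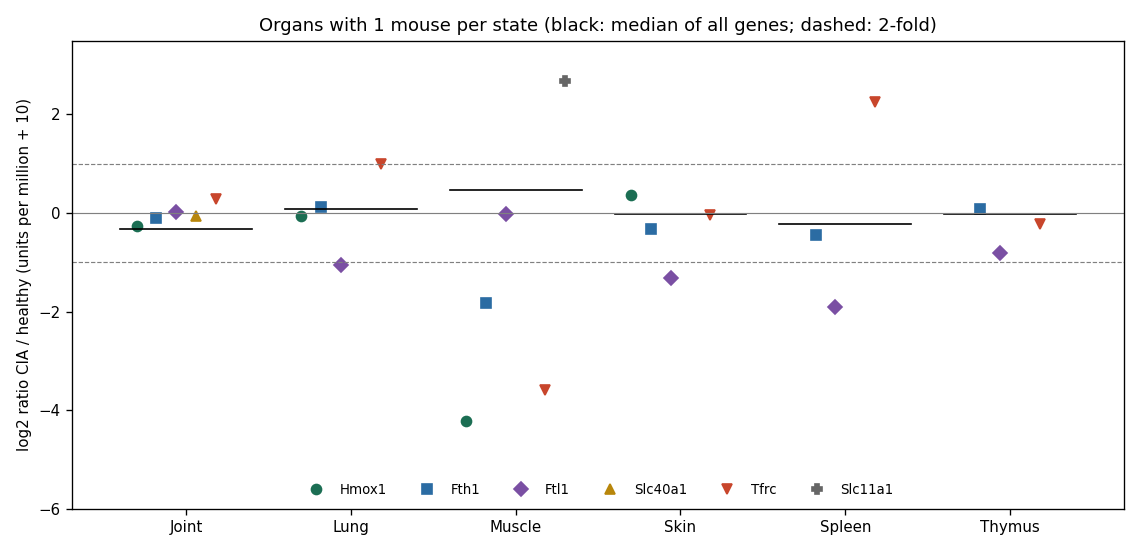
Log2 ratios of the CIA mouse to the healthy mouse on UPM + 10 on the y axis in the 6 organs with 1 mouse per state on the x axis, 1 symbol per gene with a mean of at least 25 UPM, with dashed lines at 2-fold and a black line at the median of all genes. Joint and thymus symbols lie inside the dashed lines, and muscle spreads from −4.23 to 2.69.

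The barcodes of each library were also divided by markers, to see whether the genes went with erythroid, phagocyte or neutrophil signal inside a library. The 25% of barcodes with the highest marker sum were set against the rest, organs were averaged within a mouse, and the 8 mice were compared with an exact sign-flip permutation test. None of the 18 pairs of gene and marker list passed an adjusted p of 0.05. The smallest exact p that 8 mice allow is 0.00781, too large for a single pair to pass after adjustment over 18. Pairs with a mouse at 0 cannot reach even that value, so no lack of association is read from this. The lowest unadjusted exact p was 0.0312, for Fth1 in phagocyte-rich barcodes and for Slc40a1 in neutrophil-rich barcodes, both with an adjusted p of 0.225. With totals taken without globin genes, Fth1 in phagocyte-rich barcodes had a mean of 0.11 (5 of 8 mice higher, exact p = 0.266). The lowest exact p was then 0.0234, for Fth1 and Ftl1 in neutrophil-rich barcodes (7 of 8 mice higher for each, adjusted p = 0.188). Fth1 was higher in phagocyte-rich barcodes in 6 of 8 mice (mean log2 ratio 0.19, SD 0.20). Slc40a1 was higher in neutrophil-rich barcodes in 6 mice and lower in none (mean 0.40, SD 0.37), and in the other 2 mice it was listed at 0. In erythroid-rich barcodes Slc40a1 was higher in 5 mice and lower in 1 (mean 0.25, SD 0.43, exact p = 0.156). With totals taken without globin genes, its mean was 0.445 in erythroid-rich and 0.448 in neutrophil-rich barcodes. Neighbouring barcodes share their signal after smoothing, so that contrasts inside a library can differ from those of single cells.

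**Figure D5:**
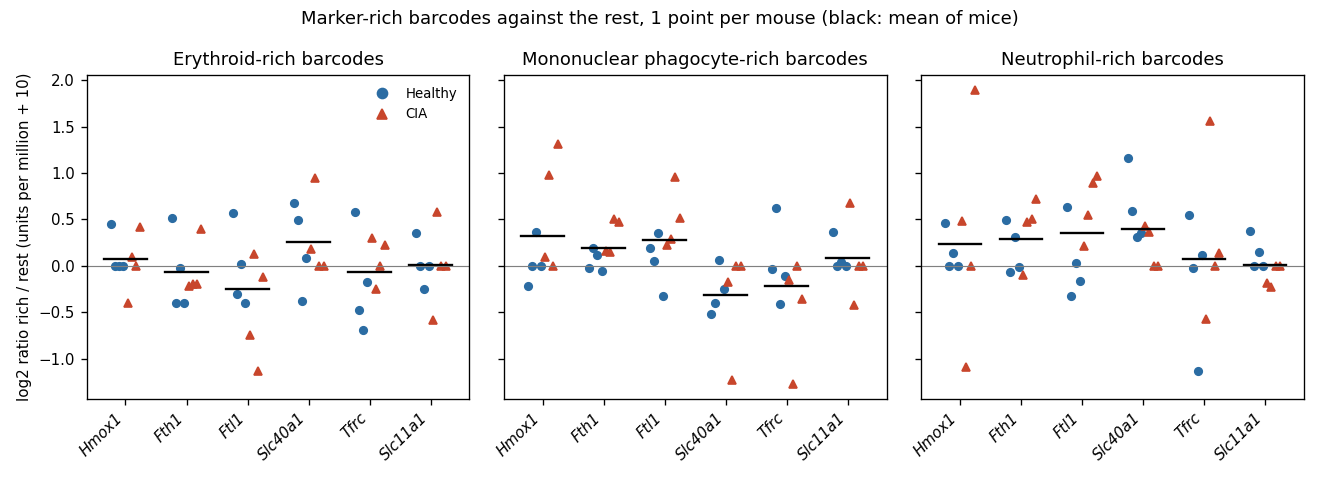
Log2 ratio of UPM + 10 in the 25% of barcodes richest in markers to the rest on the y axis for the 6 genes on the x axis, 1 panel per marker list and 1 point per mouse, with circles for healthy and triangles for CIA mice and a black line at the mean of the 8 mice. The Slc40a1 mean is 0.40 in neutrophil-rich, 0.25 in erythroid-rich and −0.31 in phagocyte-rich barcodes.

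Within the digested organs the Hmox1 contrast was not uniform. In the healthy muscle, phagocyte-rich barcodes held 1478 UPM and the rest 412 UPM. In the muscle of S1, with 14 phagocyte-rich barcodes, they were listed at 0 and the rest held 38.8 UPM. In the joint of S1 they held 587 and 236 UPM, whereas in the joint of H3 the order was turned, at 292 and 464 UPM. In lung the ratio was modest, with 2520 and 1688 UPM in H6 and 2316 and 1684 UPM in S1.

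The wider pathway was followed in 49 further genes of iron uptake, storage, export, haem breakdown, haem synthesis and their control. None was called in a tested comparison: 0 of 16 tested in blood, 0 of 9 in lymph node, 0 of 14 between the organs and 0 of 15 in the interaction. Unadjusted limma p-values were below 0.05 for 2, 0, 3 and 1 of them, against 9.82%, 4.23%, 14.9% and 8.42% of all genes, so nothing is read from these counts.

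Of the 12 uptake genes, Hp, Lcn2 and Ltf passed the level filter in blood, and all 3 are known as products of neutrophil granules. Lcn2 was listed at 0 to 16.4 UPM in the healthy mice and at 224, 0 and 183 UPM in S2, S6 and S7, and Ltf at 0 to 8.20 UPM and at 545, 0 and 0 UPM. Lcn2 and Ltf thus passed the filter through CIA mice alone, so the sign of their estimates is no result about the group. Hp, which encodes haptoglobin, had the largest difference (3.01, SE 0.72, limma adjusted p = 0.0596), and Lcn2, which encodes the siderophore-binding lipocalin 2, was the other gene of the list with an unadjusted p below 0.05. Among negative estimates the lowest p-values were those of Gclm, a target of Nfe2l2 in glutathione synthesis, at −1.80 (limma adjusted p = 0.567), and the mitochondrial iron importer Slc25a37 at −1.89 (limma adjusted p = 0.570). None of these passed the threshold. The neutrophil markers given above were also higher in S2 and S7, and their part in the uptake genes was not tested.

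Between the organs of healthy mice, 14 genes of the wider list were tested. Erythroid and neutrophil markers were both higher in blood than in lymph node in each of the 4 mice, and their part in the following values was not tested. The erythroid haem synthesis gene Alas2, itself 1 of the 9 erythroid markers, differed by −3.59 (SE 0.89), with a limma adjusted p of 0.193. Hp differed by −1.87, with a limma adjusted p of 0.265. Hp was under the level filter in the comparison within lymph node. It thus passed here through blood, where it was high, so the sign of its estimate is no result. Prdx1, a peroxiredoxin, differed by 0.30 (limma adjusted p = 0.804). In lymph node between the states, Nfe2l2 (0.47) and Txnrd1 (0.67) had the lowest p-values among positive estimates and Fbxl5 (−0.63) and Alas2 among negative ones, all with limma adjusted p = 0.963. Alas2 was listed at 0 in the 3 CIA lymph nodes, H3 and H6, at 10.0 UPM in H4 and at 184 UPM in H7, the lymph node with the most erythroid signal. It thus passed the filter through H7, so the sign of its estimate is no result. In the interaction, Hp (−2.88) stood lowest by p among negative estimates, followed by Lcn2, whose blood values are given above, and Txnrd1 (1.74) and Slc25a37 (1.80) had the lowest p among positive ones, with limma adjusted p from 0.494 to 0.735. Hp, Lcn2 and Slc25a37 were under the level filter in lymph node. They thus passed here through blood, so the signs of their estimates are no result.

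In the organs with 1 mouse per state, 14 of 24 measured genes of the wider list in spleen were higher past 2-fold in S1 and 1 was lower, against 36.9% of all genes past 2-fold in either direction. A gene measured through 1 mouse alone had to differ, so these counts are descriptions. Hp was at 17.2 UPM in H6 and 534 UPM in S1, and Alas2 was listed at 0 in H6 and at 188 UPM in S1. These moved together with the erythroid and neutrophil sums of the spleen given above, whose part was not tested. Alas2 is itself 1 of the 9 genes in the erythroid sum. The mitochondrial glycine importer Slc25a38 was the 1 lower gene, at 85.2 and 18.3 UPM. In lung, 6 of 23 were higher and 6 lower, near the 47.1% of all genes, with the Nfe2l2 targets Txnrd1 (98.4 and 547 UPM) and Slc7a11 (105 and 372 UPM) highest by ratio, and Slc25a37 (54.4 UPM and 0), the ferroxidase Cp (50.3 UPM and 0) and, level with Cp, the macrophage factor Spic (50.3 UPM and 0) lowest. In muscle, 5 of 24 were higher and 9 lower, near the 55.6% of all genes, led by Lrp1, a receptor for haem bound to haemopexin (0 and 180 UPM) and the ferrireductase Steap3 (0 and 56.7 UPM) among the higher and Lcn2 (1264 and 28.4 UPM) and Slc7a11 (68.4 UPM and 0) among the lower. The marker sums of lung and muscle given above, neutrophil markers among them, also differed between H6 and S1. The part of these cells in the lung and muscle values was not tested.

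In joint, 3 of 23 were higher and 2 lower, against 28.7% of all genes. Fbxl5, the iron sensor that degrades an iron regulatory protein, was listed at 0 in H3 and at 117 UPM in S1, and Lcn2 was at 400 and 1053 UPM. Neutrophil markers summed to 61374 UPM in the joint of H3 and 128782 UPM in that of S1, and their part in the Lcn2 values was not tested. The metal transporter Slc11a2 was at 82.9 and 10.9 UPM and Lrp1 at 311 and 116 UPM. In skin, 3 of 16 were higher and 0 lower, against 25.1% of all genes, led by Fbxl5 (14.8 and 76.8 UPM) and the Nfe2l2 target Srxn1 (17.0 and 47.9 UPM). In thymus, 0 of 17 were higher and 2 lower, against 17.0% of all genes, Nfe2l2 (68.8 and 17.8 UPM) and Ireb2 (65.3 and 17.1 UPM), which encodes iron regulatory protein 2.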

How the data were processed

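Single-cell libraries were analysed from 8 mice and 8 organs. The authors aligned reads to GRCm38, counted molecular identifiers, filtered cells and smoothed each pilot library over 12 nearest neighbours. The deposited values are whole-number sums over a barcode and its neighbours, so their unit is a signal and not a count, and limma was used in place of the count test planned for raw counts. A cut on very high transcript totals is stated for the later analysis of 5 organs and not for this table. No doublet caller was run here, because the smoothed values mix barcodes, so doublets may remain among the marker-rich barcodes. The 8282 columns held 4590 distinct profiles. Rows carry Entrez gene numbers, and 21404 of 23013 had a symbol in a RefSeq table of GRCm38.p6. Rows without a symbol held 3.39% of all units.

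Signal was summed per mouse and organ and divided by its total (UPM, units per 1000000). For tests, totals were adjusted with trimmed means (30% by log ratio and 5% by level at each end), genes averaging under 25 UPM were dropped, and log2(value + 10) was modelled with limma 3.58.1 in R 4.3.3, with a mean-variance trend and Benjamini-Hochberg adjustment over all genes. Differences on this scale understate the change of low genes. Single genes were also compared with exact two-sided permutation tests, by sign flips over animals between organs (numpy 2.4.6). Scripts were tested on simulated data. Mice were the replicates, and healthy and CIA mice with the same number are different animals. Blood and lymph node of H3, H4, H6 and H7 came from the same animals, which pairs them by design, although their deviations from the organ means correlated by only −0.00143, −0.190, 0.0465 and 0.173 over 4990 genes.

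The 6 genes and the lists were chosen with earlier results of these data known. Every member is named. Of the wider iron list, at most 2 genes with positive and 2 with negative differences per comparison are named, by lowest p or, with 1 mouse per state, by largest ratio past 2-fold (3 on a tie), and for each member the 3 genes with the highest correlation. The alternatives were other scalings, a pseudocount of 1, no level filter, limma without a trend, each distinct profile counted once, libraries with the suffix 2CIA alone, the mouse as block, the highest 10% of marker-rich barcodes, and leaving out each mouse.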

Additional observations from a re-analysis of the deposited data

Results flagged for a closer look

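Among the groups of 4 mice that could be examined for a value far from the others, 1 was found. The healthy blood of H3 had 763 UPM of Ftl1, whereas the blood of H4, H6 and H7 had 346, 317 and 321 UPM. This library was the smallest of the series, with 27 barcodes and 7 distinct profiles. Chance gives such a value in about 1 of 20 groups, and 8 groups were examined. Without H3 the Ftl1 difference between lymph node and blood of healthy mice was −0.82 on the log2 scale.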

How the results depend on the processing

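Depth limits these results: libraries held from 27 to 934 barcodes, many with shared profiles, and a value of 0 carries no detection limit. No member was called in any tested comparison under any alternative that was run. Over all genes, blood calls went from 6 to 16 with per-million totals and to 11 with median of ratios scaling or without globin genes. The mouse as replicate block changed no call (Ftl1 between organs −1.15, Tfrc interaction 2.44). Tfrc in blood could not be fitted within the suffix 2CIA, where its mean was under the level filter.

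In blood, the Fth1 difference turned to 0.30 with per-million totals, 0.0087 with median of ratios scaling, 0.14 without globin genes and 0.24 in 2CIA libraries, and Ftl1 turned to −0.083 with each distinct profile counted once. In lymph node, Tfrc turned to −0.017 with median of ratios scaling and −0.058 without globin genes. Between organs of healthy mice, Tfrc turned to 0.00324 with per-million totals and 1.55 in 2CIA libraries. In the interaction, Ftl1 turned to −0.26 with per-million totals, −0.12 with median of ratios scaling and −0.17 without globin genes. For these and the following values the cause was not tested.

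Leaving out each mouse moved Fth1 between −0.65 and 0.53 in blood, −0.28 and 0.17 in lymph node, −0.90 and −0.40 between organs (the latter without H4), and −0.74 and 0.69 in the interaction. Ftl1 moved between −0.087 and 0.27 in blood, 0.00798 and 0.54 in lymph node, −1.37 and −0.82 between organs, and −0.25 and 0.36 in the interaction, and Tfrc between −3.20 and −1.92, −0.085 and 0.15, −0.55 and 0.00742, and 1.97 and 3.31 in the same order. In marker-rich barcodes the ranges were −0.15 to 0.029 for Tfrc and −0.068 to 0.097 for Slc11a1 (erythroid), −0.00342 to 0.15 for Slc11a1 (phagocyte), and −8.68e-05 to 0.43 for Hmox1, −0.13 to 0.25 for Tfrc and −0.037 to 0.049 for Slc11a1 (neutrophil).

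In erythroid-rich barcodes without globin genes, Fth1, Ftl1 and Tfrc turned to 0.22, 0.032 and 0.16. With the highest 10% of barcodes, Hmox1, Slc40a1 and Slc11a1 turned to −0.20, −0.00577 and −0.00504 in erythroid-rich barcodes, and Tfrc and Slc11a1 to −0.079 and −0.20 in neutrophil-rich ones. With a pseudocount of 1, Slc11a1 turned to −0.095 (erythroid) and −0.022 (neutrophil). In organs with the member above 0 only, an alternative chosen after seeing the data, it turned to −0.091 (erythroid). With each distinct profile counted once, 2 lung members passed 2-fold, and Tfrc was the added one at 1.02. With the CIA library of the S1 joint alone, Slc40a1 and Tfrc had log2 ratios of −2.05 and −2.30.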
